A study of Mus musculus with 77 samples.

Results

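The livers described here were those of the 12 wild-type mice among the 24 mice of the series, and they were chosen by genotype alone, without use of any measured value. They comprised 6 Aco1+/+ mice (IRP1 +/+ in the sample names) and 6 Ireb2+/+ mice (IRP2 +/+), with 3 mice of each line taken at ZT5 and 3 at ZT12, that is 5 h and 12 h after lights on. All were adult males on the C57BL/6J background, served as controls for knockouts of either iron regulatory protein, and carried no knockout allele. Each liver gave 1 library of ribosome-protected fragments (RPF, the footprints) and 1 library of total RNA, so that 24 of the 48 libraries of the series, after summing of sequencing runs, were used.

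A translating ribosome shields a short stretch of mRNA from nuclease digestion, and sequencing these fragments counts the ribosomes that occupied each mRNA at the moment of lysis. Dividing the footprints on a coding sequence (CDS) by the RNA fragments from the same CDS gives the translation efficiency (TE), in which the abundance and the length of the mRNA cancel. Initiation at the start codon is the usual rate-limiting step, and it can be restrained by upstream open reading frames (uORFs), by proteins bound near the cap such as the iron regulatory proteins, or by signalling that acts on mRNAs with a pyrimidine run at the 5′ end. The liver, dominated by hepatocytes, devotes much of its protein synthesis to secreted plasma proteins and to metabolic enzymes.

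CDS counts ranged from 2448915 to 13439600 in the 12 RPF libraries (median 8664184.5) and from 1271060 to 3934371 in the 12 RNA libraries (median 2017737.5). The deposited columns carry no names and were read from their values as counts in the 5′UTR, CDS and 3′UTR. Of 25266 listed genes, 12419 had a CDS count in these libraries and 10373 passed the filter on low counts. Marker genes fitted the labelled tissue: the summed RNA level of 8 hepatocyte markers lay between 124700 and 164500 CPM, that is CDS counts relative to the scaled library total, against 439 to 593 CPM for 7 Kupffer cell markers, 550 to 721 CPM for 7 sinusoidal endothelial markers, 433 to 621 CPM for 6 stellate cell markers, 13.8 to 44.7 CPM for 5 cholangiocyte markers and 17.9 to 84.1 CPM for 5 erythroid markers. Only 2 of 5 lymphocyte markers were listed, 1 of them at 0, and their sum reached at most 1.79 CPM. In such bulk samples, fewer cells of a type and less RNA per cell cannot be told apart. The RNA library of the Ireb2+/+ ZT5 replicate 3 mouse stood apart from the other 11, with 19.6% of its counts in 3′UTRs, and values that rested on this mouse are given with and without it.

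TE is given as log2 of the RPF over the RNA level of the CDS after upper-quartile scaling, with 0 set at the median of all tested genes. It spread over 7.61-fold between the 5th and the 95th percentile of genes, from −1.80 to 1.13. The distribution reached further down than up: 730 genes had a mean TE over 1 and 1711 a mean TE under −1, and the 1st and 99th percentiles were −2.78 and 1.66. With edgeR's quasi-likelihood test and Benjamini-Hochberg adjustment, 3834 genes (37.0% of those tested) lay above the median gene and 4093 (39.5%) below it. Against a 2-fold difference (edgeR's glmTreat), 350 genes (3.37%) remained above and 1226 (11.8%) below. The former count was 221 with DESeq2, 213 at ZT5 alone and 151 in the Ireb2 line alone, and the RNA counts of 5′UTR, CDS and 3′UTR summed (the RNA of all 3 regions) gave 1125 above and 1885 below. With that RNA, scaling and zero are set anew, so mRNAs with all RNA counts in the CDS also rise. The mitochondrially encoded mt-Co1, for example, moved from −3.245 to −2.262. The order of genes was similar from mouse to mouse. Over 66 pairs of mice the Spearman correlation of TE across 10373 genes, which are not independent replicates, had a median of 0.758 and ranged from 0.611 to 0.837. The lowest values were those of the Ireb2+/+ ZT5 replicate 3 mouse, whose median correlation with the others was 0.643, and without it the lowest pair was at 0.697. Mean TE in the Aco1+/+ and Ireb2+/+ mice correlated at 0.914, and mean TE at ZT5 and ZT12 at 0.929, across the same genes.

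Among the 6323 genes with a mean count of at least 50, the highest TE was that of Scd2, a stearoyl-CoA desaturase, with a lowest, median and highest value of 3.31, 4.72 and 7.22 in the 12 mice. It rested on a mean of only 7.67 RNA counts per library. The next 4 places were held by Mup8 (mean TE 3.82 ± 1.27, SD, n = 12), Mup13 (3.81 ± 1.65), Mup5 (3.79 ± 1.48) and Mup4 (2.98 ± 1.28), members of the major urinary protein cluster on chromosome 4, which are secreted pheromone carriers with near-identical coding sequences. Their RNA levels were also low, with means of 6.33 to 21.8 counts per library. The Mup values are therefore uncertain, since it is not known how reads that match several copies were counted.

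The highest TE values that rested on over 100 RNA counts per library were those of Cox6b1, a nuclear-encoded subunit of cytochrome c oxidase, and B2m, the invariant light chain of MHC class I. Cox6b1 (chr7:30616971-30626114, GRCm38) had a lowest, median and highest TE of 1.13, 2.93 and 3.62 in the 12 mice, from a mean of 366 CPM in RPF and 52.9 CPM in RNA. B2m (chr2:122147687-122153082) had TE values of 1.12, 2.81 and 3.63, from 2822 CPM in RPF and 423 CPM in RNA. For both genes all 12 mice lay above the median gene, and the lowest value was that of the Ireb2+/+ ZT5 replicate 3 mouse, without which the means were 2.93 and 2.88. The remaining 3 rested on fewer RNA counts. Atp5mpl, a small subunit of ATP synthase, ranged from 1.25 to 3.05 (median 2.63) on 39 RNA counts per library, and Ptp4a1, a tyrosine phosphatase, from 0.24 to 3.17 (median 2.38) on 11.8. Ywhaz, a 14-3-3 adaptor protein, ranged from 0.32 to 4.13 (median 2.61) on 11 RNA counts per library. Its RNA counts lay mostly outside the CDS, and with the RNA counts of the 5′UTR, CDS and 3′UTR summed its TE was −1.81.

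At the low end, 6 of the 10 named places were taken by mitochondrially encoded mRNAs, described below. Of the nuclear mRNAs, BC005537, an uncharacterised protein-coding gene on chromosome 13, had a lowest, median and highest TE of −7.28, −5.45 and −4.21. Its footprints were placed mainly in the 5′UTR, at 87.8% of its RPF counts. Usf3, a basic helix-loop-helix protein, ranged from −4.84 to −3.32 (median −4.10), Ryk, a Wnt receptor of the tyrosine kinase family, from −4.13 to −3.08 (median −3.66), and Csnk1g2, a casein kinase, from −3.96 to −3.04 (median −3.46). These 3 mRNAs were far from rare, at 66.0, 46.0 and 38.8 CPM of RNA, and carried 4.08, 3.98 and 3.65 CPM of footprints. The highest of the 12 mice in each of them was still far below the median gene, and their SD over mice (0.43, 0.31 and 0.33) was smaller than that of any of the 10 genes at the top.

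**Figure D1:**
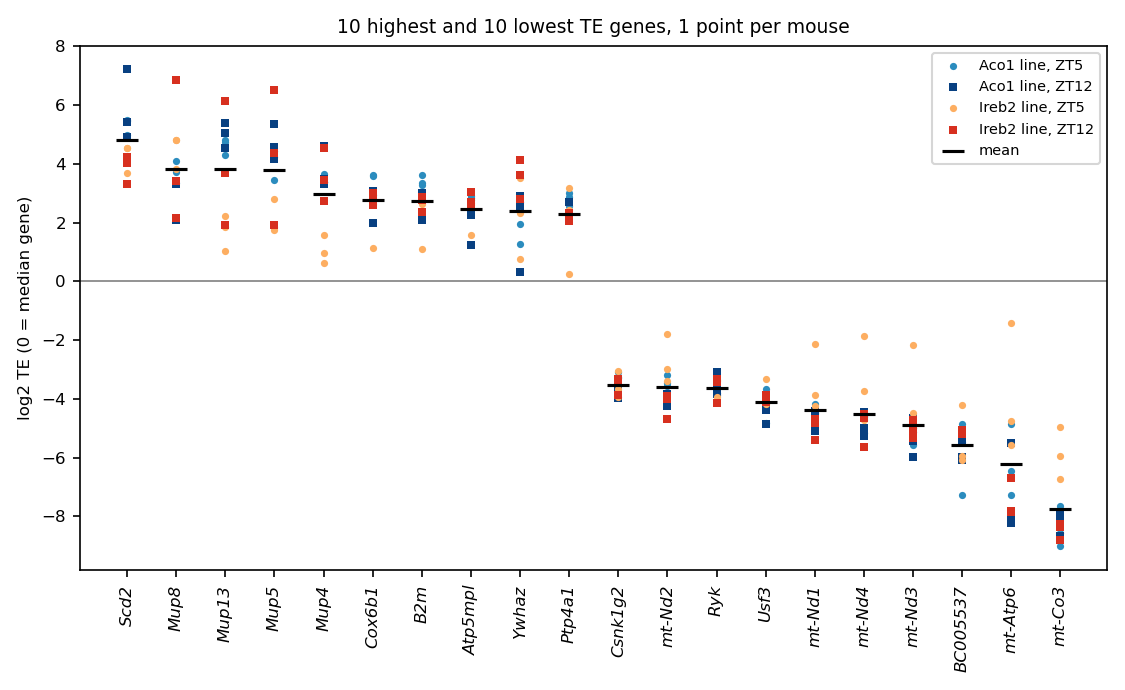
log2 TE (vertical axis, 0 at the median gene) of the 10 highest and 10 lowest genes by mean TE among those with a mean count of at least 50, with 1 point per mouse coloured by line and time and a bar at the mean of 12 mice. 1 gene without a RefSeq protein in the lowest 10 is left out. Scd2 and the 4 Mup genes spread over several log2 units between mice, while Usf3, Ryk and Csnk1g2 stayed between −4.84 and −3.04.

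To see which classes of mRNA were translated most and least, 35 lists of genes with a shared function were compared with the median gene. 25 lists had a median TE above 0 and 10 a median below 0. In what follows, above and below mean past the adjusted threshold of 0.05 in edgeR's quasi-likelihood test, and the counts are read against the 37.0% and 39.5% of all tested genes.

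Messengers of secreted and metabolic liver proteins stood above the median gene. Of 40 secreted plasma proteins, all of which were tested, 38 lay above and 0 below, and their median TE of 0.62 varied only between 0.54 and 0.75 in the 12 mice. Fetub, a fetuin-type protease inhibitor, had values of 0.76, 1.81 and 2.08 (lowest, median and highest mouse), and Igfbp1, a carrier of insulin-like growth factors, of 0.01, 1.49 and 2.59. Of 11 tested apolipoproteins (12 listed), 10 lay above and 1 below, with a median of 1.10 and 6 members over 2-fold above. Apoc1, a small lipoprotein component that activates lecithin-cholesterol acyltransferase, had TE values of 0.99, 2.08 and 2.71, and Apoc3, an inhibitor of triglyceride clearance, of 1.45, 1.59 and 1.98. The exception was Apob, the very large scaffold of lipoprotein particles, with a mean of −0.88 ± 0.39, which became 0.068 with the RNA of all 3 regions. Complement and coagulation factors had a median of 0.50, with 34 of 39 above and 1 below (0 to 2 below with 1 mouse left out, 0 in 6 of the 12 fits), led by Serpinf2, the main plasmin inhibitor, at 1.03 ± 0.13, and Masp2, a protease of the lectin pathway, at 1.01 ± 0.22.

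Enzymes of intermediary metabolism formed a narrow group. All 15 enzymes of the tricarboxylic acid cycle lay above the median gene (median 0.58), as did all 8 genes of the urea cycle (median 0.49), and none of either list lay over 2-fold above it. Mdh2, mitochondrial malate dehydrogenase, reached 1.02 ± 0.25, and Otc, which condenses ornithine with carbamoyl phosphate, 0.97 ± 0.09. Of 25 genes of fatty acid oxidation and ketogenesis, 24 lay above and 0 below (median 0.66), among them Slc25a20, the carnitine-acylcarnitine carrier, at 1.33 ± 0.31. Glycolysis and gluconeogenesis had 14 of 17 tested members above and 0 below (median 0.69), with Fbp1, the gluconeogenic bisphosphatase, at 1.07 ± 0.08. Cholesterol synthesis had 15 of 20 above and 3 below (median 0.64). Its lowest member was Idi1, isopentenyl diphosphate isomerase, whose values were −2.29, −1.44 and −0.67, while Ebp, a sterol isomerase, had 0.67, 1.39 and 1.75.

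Detoxification enzymes also lay high. Of 39 tested phase II conjugation enzymes (50 listed), 35 lay above and 0 below, with a median of 0.79 and 11 over 2-fold above. The glutathione transferases Gstm1 (values of 1.06, 1.69 and 2.17) and Gstp1 (0.95, 1.68 and 1.93) were at the top. Cytochrome P450 enzymes of families 1 to 4 had a median of 0.54, with 32 of 46 tested members (61 listed) above and 5 below. Their range, from −1.87 ± 0.90 for Cyp2j9 to 3.01 ± 1.37 for Cyp3a16, was wide, but Cyp3a16 had a mean of only 0.833 RNA counts per library, and Cyp2a4, at 1.90 ± 1.63, only 1.25.

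Among organelle and housekeeping machines, nuclear-encoded subunits of the respiratory chain and ATP synthase had the highest median of the lists with over 50 tested members, at 0.72 (0.62 to 0.98 over mice), with 64 of 74 above, 4 below and 18 over 2-fold above. Mitochondrial ribosomal proteins had a median of 0.49 (58 of 75 above, 5 below), with Mrps6 at 1.62 ± 0.70 and Mrpl55 at 1.44 ± 0.56. Proteasome subunits were at 0.49 (32 of 36 above, 4 below), with Psmb2, a β subunit of the core particle, at 0.60, 1.67 and 2.36. Chaperones and folding enzymes of the endoplasmic reticulum were at 0.54 (15 of 18 above, 3 below), and Calr, the lectin chaperone calreticulin, had values of 0.99, 1.82 and 2.07. Actins, tubulins and other cytoskeletal proteins were at 0.62 (17 of 20 above, 0 below), and Pfn1, which binds actin monomers, had 0.61, 2.10 and 2.93. Actg1, a cytoplasmic actin with many copies in the genome, had 0.30, 2.62 and 3.89, but only 3.40% of its RNA counts were in the CDS, and its TE was −1.75 with the RNA of all 3 regions. Aminoacyl-tRNA synthetases were at 0.39 (15 of 19 above, 0 below), and cytosolic heat shock proteins at 0.23 (12 of 18 above, 2 below). Bag3, a co-chaperone of Hsp70, had values of 0.33, 1.49 and 1.92, and Hspb1, a small heat shock protein, had 0.58, 2.48 and 6.48 on 4.08 RNA counts per library.

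Several short lists rested on few tested members or on gene copies. The metallothioneins Mt1 and Mt2, which bind zinc and copper, were at 2.49 ± 0.91 and 2.14 ± 1.83, on 5.67 and 3.83 RNA counts per library. Major urinary proteins had a median of 1.54, with 11 of 16 tested members (22 listed) above and 3 below, which fell to 0.26 when the RNA counts of all 3 regions were used. MHC class I genes were at 0.80 (10 of 12 above, 1 below), from −2.25 ± 0.61 for H2-T22 to 2.73 ± 0.66 for B2m. Replication-dependent histones were at 0.76 (17 of 22 above, 0 below), but only 22 of 68 listed genes passed the filter. Hist1h2bc fell from 1.5 ± 0.64 to −1.20 with the RNA of all 3 regions, its CDS holding 7.68% of its RNA counts.

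**Figure D2:**
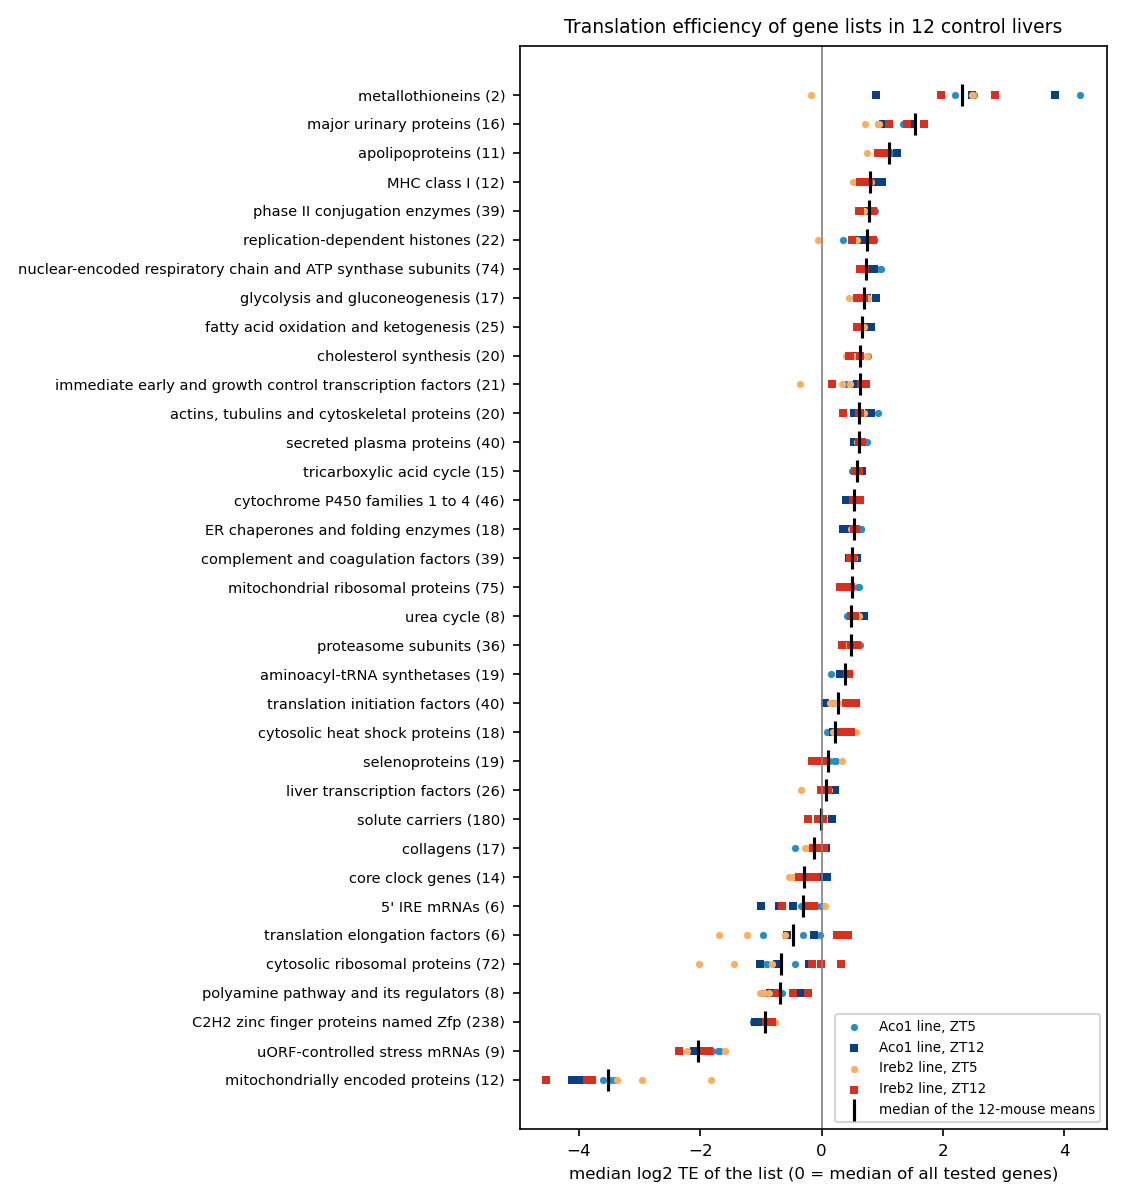
Median log2 TE (horizontal axis, 0 at the median of all tested genes) of 35 gene lists, with the number of tested members in brackets, 1 point per mouse coloured by line and time and a black bar at the median of the 12-mouse means. Lists of metabolic and secreted proteins lay to the right of 0 in all 12 mice (secreted plasma proteins 0.54 to 0.75), and uORF-controlled and mitochondrially encoded mRNAs to the left in all 12.

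Lists of regulatory and membrane proteins differed from each other. Immediate early and growth control transcription factors had a median of 0.63 (14 of 21 above, 3 below), which fell to −0.0044 with the RNA of all 3 regions. Ier2 had values of 0.27, 1.73 and 2.44, while Jund, a component of AP-1, had −1.96, −1.47 and −1.07. Transcription factors of the liver were split (11 of 26 above, 8 below, median 0.07), led by Nr0b2, the corepressor SHP, at 1.09 ± 0.37, and their median was −0.18 with the RNA of all 3 regions. Solute carriers were split evenly, with 63 above and 63 below among 180 tested members (219 listed) and a median of −0.01. Slc2a1, a glucose transporter, had values of 0.76, 1.48 and 2.18, whereas Slc25a23, a mitochondrial ATP-Mg and phosphate carrier, had −3.22, −2.95 and −2.64 at 194 CPM of RNA. Collagens had 2 of 17 above and 7 below (median −0.13), the former count running from 2 to 4 with 1 mouse left out (4 without Aco1+/+ ZT12 replicate 1), with Col27a1 lowest at −3.82 ± 0.59, and their median was 0.62 with the RNA of all 3 regions. Selenoproteins, in which a UGA codon is read as selenocysteine, had a median of 0.11 (7 of 19 above, 6 below).

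C2H2 zinc finger genes with symbols starting in Zfp were the largest list and lay low as a class. Of 238 tested members (334 listed), 194 lay below and 12 above, with a median of −0.93 that ranged from −1.14 to −0.78 over mice, and 64 lay over 2-fold below, against 11.8% of all genes. Zfp982 had values of −4.35, −3.58 and −1.61, and Zfp236 of −4.17, −3.09 and −2.51. Of 14 tested core clock genes, 8 lay below and 4 above (median −0.28). Clock itself had values of −2.87, −1.79 and −0.56, and Per3, a period protein, of −2.93, −1.64 and −1.23. Of 8 tested genes of the polyamine pathway (11 listed), 7 lay below and 0 above (median −0.68). Odc1, ornithine decarboxylase and the first enzyme of the pathway, was lowest at −3.38, −2.47 and −1.80, and Azin1, which shields it from degradation, had −2.02, −1.38 and −0.02.

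The mRNAs known for uORF control of the stress response were among the least efficient nuclear messengers. Of 9 tested members (10 listed), 7 lay below and 1 above, all 7 of them over 2-fold below, and the list median of −2.04 kept to between −2.35 and −1.60 in the 12 mice. Ppp1r15a, the regulatory subunit that reverses eIF2α phosphorylation, had values of −3.97, −2.84 and −1.71. Slc35a4, which is 1 of the 7, had a mean of 0.583 RPF counts and 6.5 RNA counts per library in its CDS, too few for a fold. Atf4 and Atf5, the transcription factors of the integrated stress response, were at −2.04 and −2.09 and were named after their values were seen. The member above the median gene was Eif1, the start codon fidelity factor, at 1.03 ± 0.43, and its TE was −0.09 with the RNA of all 3 regions. Translation initiation factors as a class were at 0.28 (23 of 40 above, 9 below). Their lowest member was Eif4g2, a relative of eIF4G that does not bind the cap-binding protein, with −2.46, −2.28 and −1.57 at 696 CPM of RNA.

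Messengers with an iron-responsive element (IRE) in the 5′UTR, to which the iron regulatory proteins bind, were not uniform: 2 of 6 lay above and 3 below, with a median of −0.31 that was 0.20 with the RNA of all 3 regions. Ftl1, the ferritin light chain, had values of −4.19, −2.58 and −0.87 in the 12 mice (mean −2.45 ± 1.08, adjusted p = 1.97e-05, edgeR's quasi-likelihood test over all genes). Fth1, the ferritin heavy chain, had −3.65, −1.49 and −0.39 (mean −1.57 ± 0.98, adjusted p = 0.000366). All 12 livers lay below the median gene for both ferritins and for Alas2, the erythroid form of the first enzyme of heme synthesis, which had −1.21, −0.41 and −0.08 (adjusted p = 3.69e-05). Slc40a1, the iron exporter ferroportin, did not pass the test (mean −0.14 ± 0.32, adjusted p = 0.0829). Epas1, the hypoxia factor HIF-2α, at 0.40 ± 0.25 (adjusted p = 1.75e-07), lay above. With the RNA of all 3 regions Alas2 turned to 0.36. The list median was lower at ZT12 than at ZT5 in both lines, at −0.15 and −0.72 (ZT5 and ZT12) in Aco1+/+ mice, where the groups of 3 did not overlap, and at −0.03 and −0.33 in Ireb2+/+ mice, where they did. The ranges of both ferritins therefore span both times: the difference of ZT12 from ZT5 was −1.37 for Fth1 (SE 0.415, edgeR unadjusted p = 0.00874, adjusted p = 0.411) and −0.97 for Ftl1 (SE 0.607, unadjusted p = 0.142, adjusted p = 0.733), and 0 of the 6 genes passed edgeR's adjusted threshold for time.

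The mitochondrially encoded mRNAs, which are translated inside the organelle by its own ribosomes, had the lowest TE of all lists. Whether footprints of these ribosomes were recovered as fully as those of cytosolic ribosomes was not tested, so the values may not be comparable. All 12 tested members (13 listed) lay over 2-fold below the median gene, the list median was −3.51, and it ranged from −4.54 to −1.83 over mice. These mRNAs held 3.89% ± 0.992 of RNA CDS counts but 0.268% ± 0.0699 of RPF CDS counts. The highest mouse was Ireb2+/+ ZT5 replicate 3, whose RNA library gave them the lowest share, 0.947%, and without it the median was −3.66. mt-Cytb, cytochrome b, ranked 7th in RNA at 0.941% of CDS counts and held 0.0674% of footprints, with TE values of −4.38, −3.46 and −1.31 (adjusted p = 2.89e-08). mt-Co1, a catalytic subunit of cytochrome c oxidase, had −4.02, −3.28 and −2.04 (adjusted p = 2.1e-09). Both of these abundant mRNAs therefore carried fewer footprints per RNA count than the median gene in all 12 livers. mt-Nd1, mt-Nd2, mt-Nd4 and mt-Nd5, subunits of complex I, had means of −4.37, −3.59, −4.52 and −3.42, and mt-Atp8, a subunit of ATP synthase, −3.44. mt-Nd3 was at −4.88 and mt-Atp6 at −6.20, the latter on 7.92 RPF counts per library. For mt-Co3, a subunit of cytochrome c oxidase, with 0.583 RPF counts per library, the mean of −7.73 depended on the prior of 0.5 counts. RNA levels of mt-Nd3, mt-Atp6 and mt-Co3 were 73.9, 91.3 and 36.2 CPM, in a list that ran from 24.6 to 8102 CPM. How reads that match several places in the genome were counted is not given, and its part was not tested. Highest were mt-Nd4l at −2.22 ± 0.87 and mt-Nd6 at −1.43 ± 0.28.

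Cytosolic ribosomal proteins, whose synthesis is under nutrient control through a pyrimidine run at the start of their mRNAs, lay below the median gene and varied strongly. Of 72 tested members (78 listed), 40 lay below, 12 above and 17 over 2-fold below, with a median of −0.66. The list median in single mice, however, ran from −2.02 to 0.32, a wider span than in any other list of over 20 members. The lowest was Rpsa, the laminin receptor protein of the small subunit, with values of −8.18, −4.91 and −2.53. Rps13 had a mean of 0.0833 RPF counts against 6.92 RNA counts per library, too few for a fold. Rpl29, with 0.30, 1.83 and 3.62, was highest, but its TE was −1.14 with the RNA of all 3 regions. With that RNA the list median was −1.27, with 56 of 78 tested members below and 7 above. The list took 0.203% of RPF and 0.383% of RNA CDS counts, and its RPF share was below its RNA share in all 12 mice. Of the 72 genes, 58 have a RefSeq pseudogene named after them, and these had a median of −0.69 against −0.50 for the other 14. Over all tested genes, 260 with such a pseudogene had a median of −0.04. How reads that match such copies were counted is not given, and its part in the TE of the list was not tested.

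The start of the transcript is shown for the 5 ribosomal protein genes with most footprint counts (Rpl4, Rps3, Rps9, Rpl41, Rplp2), for 3 ribosomal protein genes of low TE (Rps12, Rps2, Rplp0) and for Alb and 3 apolipoprotein mRNAs, which are 4 of the 5 mRNAs that took most footprints (Alb, Apoe, Apoa1, Apob). Each stretch runs from 10 bases before to 20 bases after the start annotated by RefSeq on GRCm38.p6, on the transcribed strand, 5′ to 3′. Capitals mark a C followed by at least 5 further bases that are C or T, with the first C within 10 bases of the start.
Rpl4 (chr9:64173377-64173406, plus strand): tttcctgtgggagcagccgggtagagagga
Rps3 (chr7:99483690-99483719, minus strand): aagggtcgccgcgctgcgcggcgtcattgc
Rps9 (chr7:3704031-3704060, plus strand): cttgtCTCTCTTTgtctcgggcctgagttc
Rpl41 (chr10:128549149-128549178, minus strand): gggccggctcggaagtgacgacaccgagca
Rplp2 (chr7:141447641-141447670, plus strand): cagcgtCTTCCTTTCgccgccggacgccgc
Rps12 (chr10:23787190-23787219, minus strand): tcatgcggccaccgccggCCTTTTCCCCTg
Rps2 (chr17:24720053-24720082, plus strand): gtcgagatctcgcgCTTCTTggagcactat
Rplp0 (chr5:115559457-115559486, plus strand): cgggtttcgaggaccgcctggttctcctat
Alb (chr5:90460860-90460889, plus strand): ttaaagaagtatattagagcgagtctttct
Apoe (chr7:19699169-19699198, minus strand): actccaCCTCTTTCCTCTgccctgctgtga
Apoa1 (chr9:46228620-46228649, plus strand): aagcagtggcagggccaggctgagcttatc
Apob (chr12:7977667-7977696, plus strand): gtggatcaagtacctgcctgagctccgcct

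Such a run was found in 57.7% of the 52 ribosomal protein genes with a start sequence, against 23.5% of the 8273 tested genes with one and 19.2% of all 32851 windows. Of the ribosomal protein genes shown, 2 of the 5 with most footprint counts and 2 of the 3 of low TE have the run. The former were chosen by counts and not by TE: Rps9, with a run of 8 bases, had a mean TE near 0, whereas Rps12, with a run of 11, was at −3.22, and Rpl4, with none at its annotated start, was at −0.82. The median TE was −0.56 for ribosomal protein genes with a run and −0.64 for those without. Over all tested genes the medians were −0.02 and 0.0042. An annotated start need not be the one used in liver, as for Apoe, where 1 of 3 annotated starts has the run.

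Footprints were more concentrated on a few mRNAs than RNA was. Per library, 82 genes (68 to 97) held 50% of RPF CDS counts, against 119.5 (102 to 159) for RNA. The top 10 genes of each library held 25.7% ± 1.57 of RPF and 24.1% ± 1.47 of RNA counts, a difference of 1.60 percentage points (exact paired permutation test, two-sided, p = 0.000977, adjusted over 2 tests 0.000977, RPF higher in 11 of 12 mice). The top 100 held 52.8% ± 1.25 and 47.8% ± 1.5, a difference of 5.05 points (p = 0.000488 in the same exact test, adjusted 0.000976, 12 of 12 mice).

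Albumin, the main plasma protein, took most footprints. Alb held 10.2% of RPF CDS counts in the lowest mouse, 12.4% in the median mouse and 14.7% in the highest, against 8.81%, 11.4% and 13.3% of RNA, and its RPF share was higher than its RNA share in all 12 mice. Apoe held 3.00% ± 0.248 of footprints and 1.82% ± 0.273 of RNA, Apoa1, the main protein of high-density lipoprotein, 1.5% ± 0.170 and 0.880% ± 0.0941, and Apoa2 1.02% ± 0.185 and 0.585% ± 0.0952. These 3 apolipoproteins, too, had the higher share in RPF in all 12 mice. Apob went the other way: it ranked 2nd in RNA at 2.94% ± 0.485 and 5th in footprints at 1.26% ± 0.263, with the lower share in RPF in all 12 mice. C3, the central complement protein, also had the lower share in RPF in all 12 mice (1.02% against 1.25%). Its mean TE of 0.06 did not pass edgeR's test against the median gene (adjusted p = 0.12). Trf, the iron carrier transferrin, held 2.04% of RPF and 1.93% of RNA counts (RPF higher in 8 of 12), and Cyp2e1, an ethanol-oxidising P450, 1.17% and 0.929% (12 of 12). Pzp, a broad protease inhibitor, held 1.04% and 1.14% (2 of 12), and Cps1, which feeds ammonia into the urea cycle, 0.981% and 0.916% (10 of 12). A lower share is not a low TE, since the 2 measures have different zeros. Pzp, with a mean TE of 0.22, lay above the median gene. The 40 secreted plasma proteins together took 24.3% ± 1.94 of footprints and 20.9% ± 1.26 of RNA, and the apolipoproteins 8.09% ± 0.560 and 6.88% ± 0.285, each higher in RPF in 12 of 12 mice.

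**Figure D3:**
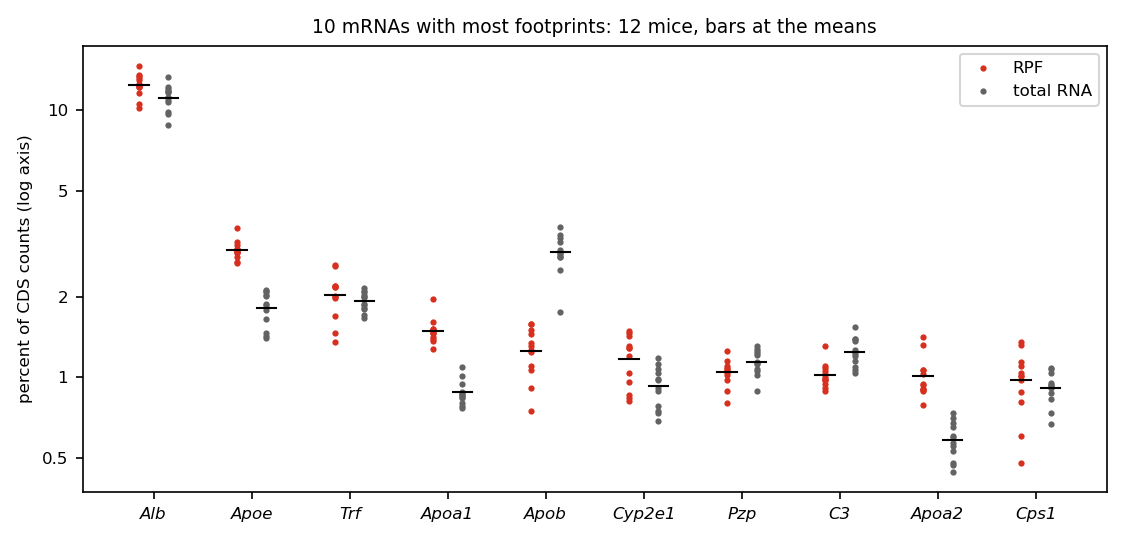
Percent of CDS counts (vertical log axis) taken by the 10 mRNAs with the largest mean share of footprints, with 1 point per mouse for RPF (red) and total RNA (grey) and bars at the means of 12 mice. Alb held 12.5% of RPF and 11.1% of RNA counts on average, and Apob is the mRNA whose RPF points lie furthest below its RNA points.

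By region, footprints fell almost wholly in the CDS. Of counts in the 3 annotated regions, the CDS held 96.4% in the lowest, 97.7% in the median and 98.5% in the highest RPF library, against 64.2%, 66.6% and 75.8% in RNA. The 3′UTR held 0.259% ± 0.0442 of RPF and 27.5% ± 2.84 of RNA counts, a share 106-fold larger in RNA. The 5′UTR held 2.17% ± 0.555 of RPF and 5.71% ± 0.911 of RNA counts. In each region all 12 mice differed in the same direction (exact paired permutation test, two-sided, p = 0.000488, the smallest that 12 pairs allow, and 0.000488 adjusted over 3 regions). The 3′UTR share of RNA was lower in all 6 Ireb2+/+ than in all 6 Aco1+/+ mice, the nearest of which were both at 28.1%. Its mean was 25.7% ± 3.07 in Ireb2+/+ and 29.2% ± 0.956 in Aco1+/+ mice, a difference of −3.50 points (exact permutation test, two-sided, p = 0.00216, adjusted over 12 comparisons 0.0259), with −4.82 points at ZT5 and −2.19 at ZT12. The difference was −2.28 points without Ireb2+/+ ZT5 replicate 3, and the adjusted p rose to 0.0519 in the first run alone and in 9 of the 12 fits with 1 mouse left out. With all 12 mice no other share differed between lines or times past the adjusted threshold. Without Ireb2+/+ ZT5 replicate 3 the 5′UTR share of RNA was lower at ZT12 (difference −1.43 points, exact permutation test, adjusted p = 0.026). Without Ireb2+/+ ZT12 replicate 2 the lines differed in the 5′UTR share of RPF (−0.761 points, adjusted p = 0.026) and in the CDS share of RPF (0.794, adjusted p = 0.039) and of RNA (4.09, adjusted p = 0.039), the last also without Aco1+/+ ZT12 replicate 1 (4.11, adjusted p = 0.026).

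**Figure D4:**
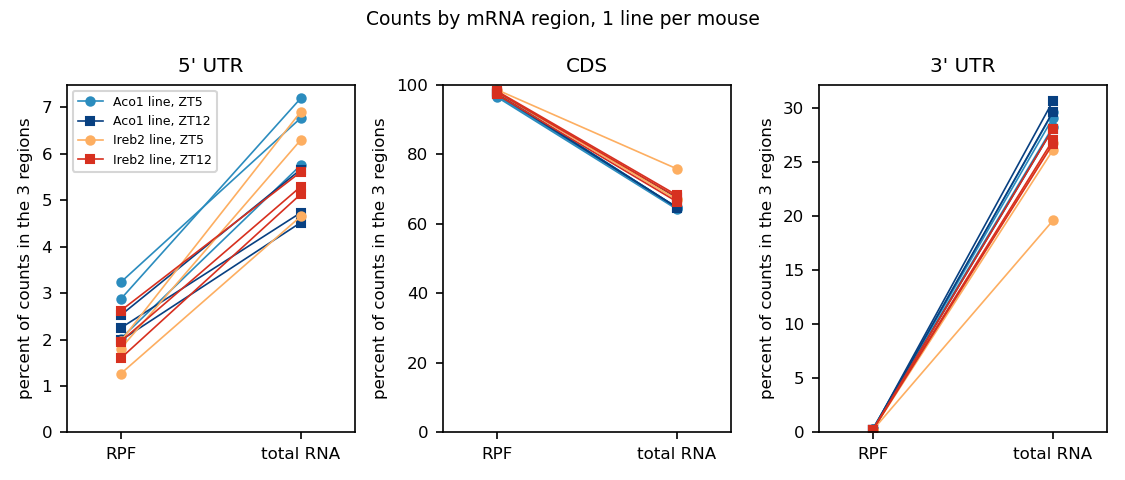
Percent of counts in the 5′UTR, CDS and 3′UTR (vertical axes, linear from 0, with a scale of their own in each panel) in the RPF and total RNA library of each of the 12 mice, joined by a line per mouse and coloured by line and time. All 12 lines fall from RPF to RNA in the CDS and rise in both UTRs, and 1 mouse of the Ireb2 line at ZT5 stands apart at 19.6% of RNA counts in the 3′UTR.

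The shares of single mRNAs departed widely from these sums. Among 7302 genes with a mean of at least 50 RPF counts, the median share of footprints was 1.84% in the 5′UTR and 0.251% in the 3′UTR. In 1069 genes (14.6%) over 10% of footprints lay in the 5′UTR, and in 45 over 50%. Gapdh, the glycolytic dehydrogenase, had 99.8% of its footprints in the 5′UTR, but its CDS was listed at 0 in all libraries, so that no TE could be given. Josd1, a deubiquitinase, had 80.0%, 88.0% and 97.7% in the 5′UTR (lowest, median and highest mouse). Its TE of −1.89 rested on only 4.92 RPF and 8.08 RNA counts per library in the CDS. Mup9 and Mup10 had 99.8% and 88.3% of their footprints in the 5′UTR. The 5′UTR share of RNA was 67.1% for Gapdh, 27.7% for Josd1, 43.9% for Mup9 and 93.4% for Mup10. Over 10% of footprints in the 3′UTR was seen in 42 genes. Of these, Qser1 had 96.8%, Rps6kc1 94.4%, Ncstn, a subunit of γ-secretase, 91.9%, Mvd, a decarboxylase of sterol synthesis, 91.4% and Myo1e, a class I myosin, 86.6%. The 3′UTR shares of their RNA were as large (99%, 96.1%, 94.7%, 94.5% and 87.1%).

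Genes with a large 5′UTR share of footprints had low TE also when both were measured in different mice. When tested genes were divided into 5 classes of equal size by their 5′UTR share in Aco1+/+ mice, the median TE in Ireb2+/+ mice was 0.08, 0.25, 0.16, −0.07 and −0.59 from the lowest to the highest class. With the lines exchanged it was 0.10, 0.28, 0.13, −0.07 and −0.62. RNA abundance gave a smaller spread, with medians of 0.0086, −0.08, −0.01, −0.11 and 0.20 over classes set in Aco1+/+ mice. The 3′UTR share of RNA gave −0.06 in the lowest and 0.11 in the highest class. Footprints counted to the 5′UTR are not counted to the CDS, so that both measures depend on the same gene models, and the part of this was not tested.

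Few genes differed in TE between the times. With both lines in 1 fit, 2 genes were higher at ZT12 (0.0193% of those tested) and 2 lower (0.0193%), and 889 had an unadjusted p under 0.05. Nfyb, a subunit of the CCAAT-binding factor NF-Y, had values of −2.85, −2.60 and −2.16 in the 6 mice at ZT12 (lowest, median, highest) and −1.14, −0.88 and −0.04 at ZT5. The groups did not overlap, and the difference of −1.74 (SE 0.236, edgeR adjusted p = 2.41e-05) was called with each mouse left out. Its means at ZT12 and ZT5 were −2.60 and −0.88 in Aco1+/+ and −2.56 and −0.68 in Ireb2+/+ mice. Echdc2, an enoyl-CoA hydratase family member, had 0.24, 0.68 and 0.81 at ZT12 and −0.32, −0.02 and 0.24 at ZT5 (difference 0.64, SE 0.117, adjusted p = 0.0131). Rpl7, of the large ribosomal subunit, was 0.71 higher at ZT12 (adjusted p = 0.0196) and Mup14 0.47 lower (log2 difference −0.47, adjusted p = 0.0274), with overlapping groups for both. The calls of Echdc2, Rpl7 and Mup14 were each lost without Aco1+/+ ZT5 replicate 1, without Aco1+/+ ZT12 replicate 2 and without Ireb2+/+ ZT12 replicate 3, and without Ireb2+/+ ZT5 replicate 3 the counts were 18 higher and 11 lower.

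The lines differed at more genes. 253 genes (2.44%) had a higher and 110 (1.06%) a lower TE in Ireb2+/+ than in Aco1+/+ mice, and 1796 had an unadjusted p under 0.05. These are wild-type controls of separate strains, so that line, breeding and any handling of their libraries cannot be told apart. Leaving out 1 mouse gave 0.910% to 2.40% higher and 0.303% to 1.40% lower. Both shares fell by over 1.5 times without Aco1+/+ ZT5 replicate 1 or 2, Aco1+/+ ZT12 replicate 2 or 3, or Ireb2+/+ ZT12 replicate 1 or 3, and no gene passed edgeR's test when libraries were not paired by mouse. Mup14 had values of −0.51, −0.22 and 0.45 in Ireb2+/+ and −1.56, −1.42 and −0.98 in Aco1+/+ mice (difference 1.17, SE 0.096, adjusted p = 5.07e-12). The organic anion transporters Slco1b2 (difference 0.49, adjusted p = 0.000101) and Slco1a1 (0.52, adjusted p = 0.000483) were higher in Ireb2+/+ mice, with no overlap between the lines. Apoc3 (−0.38, adjusted p = 0.00237), Ndufb7 of complex I (−0.55, adjusted p = 0.00297), Clta, a clathrin light chain (−0.67, adjusted p = 0.0035), and Apoe (−0.32, adjusted p = 0.0037) were lower, the first 2 with no overlap.

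List medians in the 4 groups are given as values, with no test. Secreted plasma proteins had means over 3 mice of 0.69 and 0.56 in Aco1+/+ mice at ZT5 and ZT12 and of 0.61 and 0.64 in Ireb2+/+ mice. Nuclear-encoded respiratory chain subunits had 0.88, 0.81, 0.66 and 0.67 in the same order. Aminoacyl-tRNA synthetases had 0.32, 0.38, 0.44 and 0.43. Larger differences between times, in at least 1 line, included those of cytosolic ribosomal proteins, elongation factors, mitochondrially encoded mRNAs and 5′ IRE mRNAs. The polyamine pathway had −0.87, −0.50, −0.94 and −0.48 in the same order, and major urinary proteins had 1.09, 1.18, 0.87 and 1.40. Cytosolic ribosomal proteins had −0.75 ± 0.28 and −0.65 ± 0.41 in Aco1+/+ mice at ZT5 and ZT12, and −1.43 ± 0.60 and 0.05 ± 0.25 in Ireb2+/+ mice (SD, n = 3), where the 3 mice at ZT12 lay above the 3 at ZT5. Translation elongation factors, of which 2 of 6 lay above and 2 below the median gene over all mice (median −0.47, and 0.30 with the RNA of all 3 regions), had −0.43, −0.10, −1.17 and 0.34 in that order. The mitochondrially encoded mRNAs had −3.51 and −4.01 in Aco1+/+ mice and −2.72 and −4.06 in Ireb2+/+ mice, lower at ZT12 in both lines, with the mouse that stood apart at −1.83 in the Ireb2+/+ ZT5 group. The 2 metallothioneins had 2.99, 2.41, 1.60 and 2.26, but the value at ZT5 in Ireb2+/+ mice rested on the mouse that stood apart, at −0.17 against 2.50 and 2.48 in the other two.

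**Figure D5:**
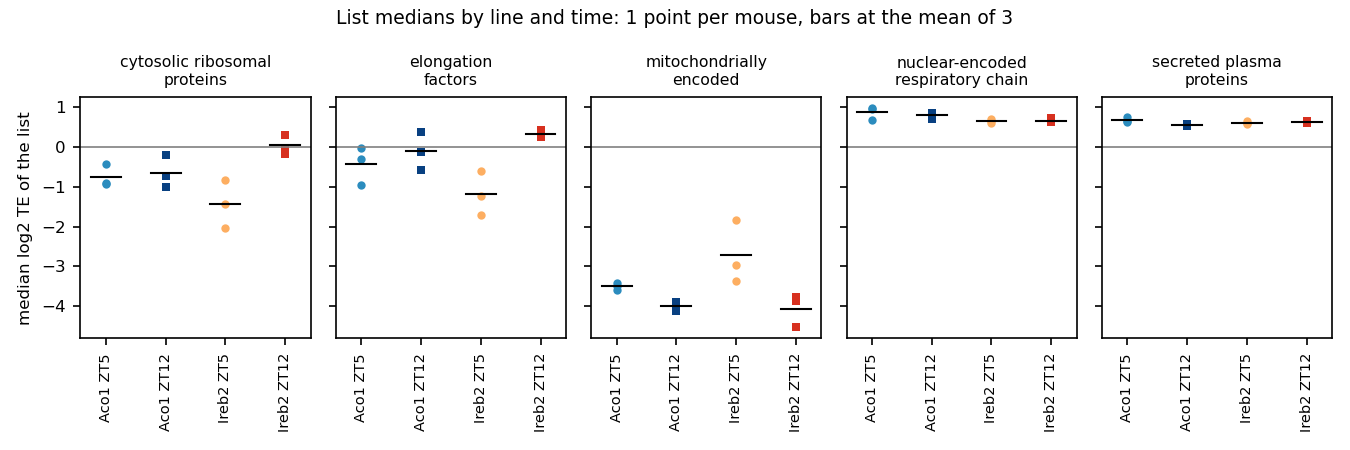
Median log2 TE (vertical axis, 0 at the median gene) of 5 gene lists by line and time, with 1 point per mouse and a bar at the mean of 3 mice. Secreted plasma proteins and respiratory chain subunits stayed between 0.54 and 0.98 in every mouse, while cytosolic ribosomal proteins ran from −2.02 to 0.32.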

How the data were processed

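Livers of 12 wild-type mice were analysed. According to the deposited labels and the methods of the study, lysates were digested with RNase I, footprints and total RNA were depleted of rRNA, adapters were removed with cutadapt (3.5), different read-length windows were kept for the 2 kinds of library, rRNA and tRNA reads were removed with Bowtie2 and the rest were mapped to the mouse genome with STAR (2.70f). The deposited values are raw counts per gene, with no normalisation by the authors, in 1 file per sequencing run. The counting tool and its strand setting are not given in the sources used here, so overlapping and antisense genes, and genes with near-identical copies, are uncertain. The count columns carry no names and were read from their values as 5′UTR, CDS and 3′UTR, 1 column of zeros and 1 column that was not identified (median 3.45% of RPF and 9.76% of RNA counts).

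The runs of each library were summed (17 of 24 libraries had 2 runs). Genes were filtered with filterByExpr (minimum count 10, minimum total 15) and fitted with edgeR 4.0.16 in R 4.3.3 after upper-quartile scaling, by robust quasi-likelihood with the mouse as a block. The RPF offset set the median gene to 0, a shift of 0.105 on the log2 scale. TE per mouse used a prior of 0.5 counts. p-values were adjusted by Benjamini-Hochberg over the 10373 tested genes, with a threshold of 0.05, and glmTreat tested against a 2-fold difference. Standard errors are the log2 difference over the square root of F. Single values per library were compared by exact permutation over mice (SciPy 1.17.1). The fit was also run on simulated data, and no outcome of that run is reported here. Start sequences are those of RefSeq (GRCm38.p6). The alternatives included DESeq2 1.42.0 and limma 3.58.1.

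Genes were named by rule: the 10 highest and 10 lowest TE among genes with a mean count of at least 50 (predicted genes and those without a RefSeq protein counted but not named), the 10 with most footprints, the 5 with the largest share of footprints in either UTR, up to 2 members of highest and 2 of lowest TE per list, all mitochondrially encoded and 5′ IRE genes, and up to 4 genes each way by smallest adjusted p per contrast. Of the genes this rule names, 2 are not reported here. The members and lists were chosen with earlier results of these data known. p-values measure the spread between the 12 separate mice. Intervals for counting error were not needed, since each value comes with its spread over mice.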

Additional observations from a re-analysis of the deposited data

Results flagged for a closer look

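The change in TE from ZT5 to ZT12 differed between the 2 control lines, by an interaction term in edgeR's quasi-likelihood fit, for 15 genes, 13 with a positive value (0.125% of those tested) and 2 with a negative value (0.0193%); 938 genes had an unadjusted p under 0.05. A positive value means that TE rose more, or fell less, in Ireb2+/+ than in Aco1+/+ mice. 6 of the 13 encode cytosolic ribosomal proteins, 6 of 72 tested members: Rpl14 (interaction 1.92, SE 0.321, adjusted p = 0.0025), Rps29 (2.99), Rps27a (1.73), Rpl37a (2.42), Rpl13a (2.32) and Rpl34 (1.31). With single mice left out, the call of Rpl14 was lost in 1 of the 12 omissions and that of Rpl37a in 8. The calls of Rps29, Rps27a, Rpl13a and Rpl34 were each lost in 9. Rpl14 had means of −0.12 and −0.26 at ZT5 and ZT12 in Aco1+/+ mice and of −1.46 and 0.31 in Ireb2+/+ mice. The secreted proteins Serpina1c, an α1-antitrypsin (0.83, adjusted p = 0.007), and Gc, the vitamin D carrier (0.59, adjusted p = 0.0174), passed the same test. So did Ddrgk1 (0.98) of the UFM1 pathway, the interferon-induced Ifitm3 (0.90), the prefoldin subunit Pfdn5 (1.66), the Hsp90 co-chaperone Cdc37 (1.10) and the transcriptional coactivator Sub1 (1.26). Oplah, 5-oxoprolinase (−0.88, adjusted p = 0.0174), and Tmem150a (−1.12) had negative values. Leaving out single mice gave 0 to 37 positive and 0 to 30 negative genes, with 37 and 12 without Ireb2+/+ ZT5 replicate 3, and each of the 12 omissions moved at least 1 of these counts by over 1.5 times.

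The count column that was not identified was used in no comparison and held a median of 3.45% of all counts in RPF libraries (2.18% to 5.01%) and 9.76% in RNA libraries (7.98% to 16.6%), above 0 in all 24 libraries.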

How the results depend on the processing

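Depth limited the TE of genes with few RNA counts, and several of the highest values rest on under 10 of them per library. RPF counts per coding base and classes of coding length or N-terminal sequence were not computed here. Over all tested genes, counts above and below the median gene stayed within 1.5 times under the alternatives that gave them. With 1 mouse left out, small counts of list members moved further for complement (0 to 2 below), glycolysis (0 to 1 below), the cytoskeleton (0 to 1 below) and collagens (2 to 4 above). Of 1017 list medians under alternatives, 962 moved by less than 1 SD over mice and 14 changed sign. Many of these could hardly move. TE per mouse is the same with DESeq2, limma, no pairing or a block for replicate number, and omitting 1 mouse keeps all others. The share that stayed therefore says little about robustness. The cause of each change below was not tested, other than where fewer samples or genes entered or where the RNA counts, scaling or zero were set otherwise.

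Summing the RNA of all 3 regions moved most. It gave 1125 genes over 2-fold above and 1885 over 2-fold below, 14 genes higher and 5 lower at ZT12, and 2.45% of tested genes lower in the Ireb2 line. List medians were 0.70 for mitochondrial ribosomal proteins, 0.70 for initiation factors, 0.30 for elongation factors, 1.19 for aminoacyl-tRNA synthetases, 1.19 for respiratory chain subunits, −2.53 for mitochondrially encoded mRNAs, 1.11 for the proteasome, 1.34 for secreted proteins, 1.09 for complement and coagulation, 1.67 for apolipoproteins, 1.14 for cytochrome P450, 1.06 for phase II enzymes, 0.26 for major urinary proteins, 1.02 for the urea cycle, 1.20 for fatty acid oxidation, 1.02 for glycolysis, 1.14 for the tricarboxylic acid cycle, 0.94 for ER chaperones, 1.03 for heat shock proteins, 0.20 for 5′ IRE mRNAs, −2.02 for the polyamine pathway, −0.085 for clock genes, −0.18 for liver transcription factors, −0.0044 for immediate early genes, 1.05 for histones, 0.62 for collagens and 0.95 for MHC class I. The sign turned for Actg1 (−1.75), Alas2 (0.36), Apob (0.068), Eef1b2 (0.19), Eif1 (−0.087), Hist1h2bc (−1.20), Rpl29 (−1.14), Selenoi (−0.23), Slc40a1 (0.040), Ywhaz (−1.81) and Zfp36l1 (−0.039). Such values depend on the CDS share of a gene's RNA counts and on the new zero. Apob and Alas2, with 97.9% and 90.1% in the CDS, turned upward, and Actg1 and Ywhaz, with 3.40% and 2.83%, downward. Slc40a1 also turned in the Ireb2 line alone (0.0039) and at ZT5 alone (0.064). Of the 350 genes over 2-fold above, 298 stayed above and 38 were called below, while all 1225 genes over 2-fold below that were also tested there stayed below.

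With the zero left where upper-quartile scaling put it, medians were 0.60 for mitochondrial ribosomal proteins, 0.50 for synthetases, 0.59 for the proteasome, 0.73 for secreted proteins, 0.60 for complement, 0.65 for cytochrome P450, 0.89 for phase II enzymes, 0.60 for the urea cycle, 0.76 for fatty acid oxidation, 0.69 for the tricarboxylic acid cycle, 0.64 for ER chaperones and 0.093 for solute carriers. A minimum count of 50 gave 0.56 for secreted proteins, 0.45 for complement and 0.54 for the tricarboxylic acid cycle. The first run alone gave 0.45 for complement and 0.66 for phase II enzymes, and no filter other than a count above 0 gave 0.53 for phase II enzymes, 0.83 for major urinary proteins and −0.79 for Zfp genes. ZT5 alone gave −1.08 for the polyamine pathway, the Aco1 line alone 0.45 for complement and 1.13 for major urinary proteins, and the Ireb2 line alone 0.37 for mitochondrial ribosomal proteins, 0.57 for the urea cycle and 0.52 for cholesterol synthesis. A prior of 5 counts gave −1.76 for uORF-controlled mRNAs and −0.74 for Zfp genes. Genes over 2-fold above numbered 221 with DESeq2, 213 at ZT5 alone and 151 in the Ireb2 line alone.

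Genes higher and lower at ZT12 numbered 6 and 10 with DESeq2, 5 and 1 in the first run alone, 0 and 1 with limma, and 0 and 1 when libraries were not paired by mouse. With a minimum count of 50, 1 gene was lower. In the Ireb2 line, 3.88% of tested genes were higher and 1.82% lower with a minimum count of 50, 0.759% and 0.390% in the first run alone, and 0 and 0 without pairing by mouse. Positive and negative interactions numbered 7 (positive) with DESeq2, 2 and 0 with limma, 21 and 5 with no filter other than a count above 0, 1 and 0 with a minimum count of 50, 6 and 0 in the first run alone, and 0 and 0 without pairing by mouse.

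Replicate numbers of the groups were also fitted as a replicate block, which gave 4 genes higher at ZT12 and 5 negative interactions. Same-numbered mice of different groups did not deviate together (correlations of −0.0869 to 0.075 over 18 pairs, against −0.08 to 0.131 over 36 pairs with different numbers), so the numbers do not pair the mice.

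Leaving out 1 mouse gave 0 to 18 genes higher and 1 to 11 lower at ZT12, 0.910% to 2.40% higher and 0.303% to 1.40% lower in the Ireb2 line, and 0 to 37 positive and 0 to 30 negative interactions. Region shares differed between times by −0.224 to 0.170 points (5′UTR, RPF), −1.43 to −0.919 (5′UTR, RNA), −0.141 to 0.275 (CDS, RPF) and −1.29 to 1.03 (CDS, RNA), and between lines by −0.761 to −0.460 (5′UTR, RPF), −0.376 to 0.160 (5′UTR, RNA), 0.483 to 0.794 (CDS, RPF), 2.21 to 4.11 (CDS, RNA) and −3.98 to −2.28 (3′UTR, RNA, where 9 of 12 fits missed the adjusted threshold). As the median over genes, the time difference of the 5′UTR share of RPF turned to 0.0834 and the line difference in RNA to 0.0843, and without the top 100 genes the former was 0.0153. The line difference of the CDS share of RNA passed the threshold as the median over genes (3.49) and without the top 100 genes (3.63), and that of the 3′UTR missed it in the first run alone (−3.45).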

Other observations

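Among groups of at least 10 tested genes whose symbols share a root, the top of the TE order held, after the Mup genes, the complex I subunits named Ndufa (median 0.86, 12 of 13 above the median gene), the Cox genes of cytochrome c oxidase and its assembly (0.79, 17 of 19 above), the small integral membrane proteins named Smim (0.79, 10 of 15 above), the aldehyde dehydrogenases named Aldh (0.73, 12 of 15 above), the histones named Hist (0.69, 16 of 21 above), the hydroxysteroid dehydrogenases named Hsd (0.68, 12 of 13 above) and the carboxylesterases named Ces (0.68, 13 of 14 above). From the lowest upward, the bottom held the Dennd genes, which activate Rab GTPases (−1.21, 8 of 11 below), the palmitoyltransferases named Zdhhc (−1.04, 12 of 16 below), the ankyrin repeat proteins named Ankrd (−0.99, 17 of 21 below), the PHD finger proteins named Phf (−0.95, 11 of 17 below), the zinc finger genes named Zfp (−0.93, 194 of 240 below), the Pik genes (−0.90, 8 of 13 below), the ubiquitin-specific proteases named Usp (−0.88, 31 of 40 below), the St genes (−0.84, 10 of 11 below) and the F-box proteins named Fbxl (−0.81, 9 of 13 below). These are counts past the same adjusted threshold, against 37.0% above and 39.5% below over all tested genes. The groups were ordered by the values they are described with, and no test was made of them.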
